A study of Rattus norvegicus with 484 samples.

Results

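Expression of 6 genes known from macrophages and antigen presentation was followed across 4 rat tissues and 5 compounds: C1qa and C1qb, Csf1r, Lyz2, Cd74 and Trem2. They were taken by name from the platform's gene table, which gave 8 probes (1 each for C1qa, C1qb, Cd74 and Trem2 and 2 each for Csf1r and Lyz2) of the 23653 probes and 10213 named genes on the array. All 6 genes were measured in soleus, quad, liver and a muscle that the labels call EDL.

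The study measured 484 2-colour arrays, each with RNA of 1 rat in the Cy5 channel and a same-day pool of that tissue from 10 to 16 vehicle rats in the Cy3 channel. Each rat had received fenofibrate at 400 mkd, bezafibrate at 250 mkd or Wy-14643 at 100 mkd (agonists of the nuclear receptor PPARA), rosiglitazone at 100 mkd (an agonist of PPARG), retinoic acid at 25 mkd (a ligand of retinoid receptors) or vehicle. Sampling ran from day 2 to day 6; mkd is the unit as the labels write it. Liver had 73 vehicle arrays and 14, 15, 15, 15 and 15 of the compounds in that order, soleus had 35 and 19, 20, 18, 20 and 20, and quad had 63 and 18, 20, 16, 16 and 18. For EDL no single vehicle rat was on an array, and doses were mostly lower: 9 arrays of fenofibrate at 50 mkd, 9 of bezafibrate at 25 mkd, 12 of Wy-14643 at 10 mkd, 9 of rosiglitazone at 10 mkd, 4 of rosiglitazone at 100 mkd on day 4, and 11 of retinoic acid at 2.5 mkd. Strain, sex and age are not given in the sources used here.

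Ratios were taken as rat over vehicle pool, on the log2 scale. That direction is likely rather than stated: it rests on the channels in the labels and on Cyp26a1, the retinoic acid hydroxylase, which was higher by 3.49 ± 0.16 (SE) in liver with retinoic acid, and Acot1 and Cyp4a1, textbook PPARA targets, which were higher by 3.11 ± 0.22 and 1.94 ± 0.09 with the PPARA agonists. Values below are deviations, meaning an array's log2 ratio minus the mean ratio of the vehicle rats of its tissue and day. A gene was called where limma's moderated test gave a Benjamini-Hochberg adjusted p under 0.05 over all features tested in that comparison. A ratio carries no level, so neither the genes nor the tissues can be ranked by abundance, and the labelled tissues could not be checked by the level of their own markers.

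Macrophages live in every tissue, as Kupffer cells in liver and as resident cells between the fibres in muscle. C1qa and C1qb encode chains of C1q, which opens the classical complement pathway, and tissue macrophages are its main source. Csf1r is the receptor for the growth factors Csf1 and Il34, on which macrophages depend, and Trem2 is a lipid-sensing receptor that signals through Tyrobp. Lyz2 encodes the lysozyme of macrophages and granulocytes. Cd74 encodes the invariant chain, which escorts MHC class II to the compartment where peptides are loaded. In whole tissue, fewer cells of a type and less RNA per cell cannot be told apart.

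The promoters of C1qa and C1qb are shown because both genes fell in liver with the PPARA agonists, and that of Trem2 because it rose in soleus and quad with retinoic acid. Each run holds the 250 bases before the RefSeq start on build GRCr8, 5′ to 3′ along the gene, with matches to the motifs searched in capitals.
C1qa, chr5:154419934-154420183, minus strand: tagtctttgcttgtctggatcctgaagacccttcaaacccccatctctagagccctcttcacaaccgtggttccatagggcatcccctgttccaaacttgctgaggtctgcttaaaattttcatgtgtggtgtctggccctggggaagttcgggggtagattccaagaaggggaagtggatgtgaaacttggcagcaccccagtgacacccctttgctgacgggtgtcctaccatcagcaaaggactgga
C1qb, chr5:154407828-154408077, minus strand: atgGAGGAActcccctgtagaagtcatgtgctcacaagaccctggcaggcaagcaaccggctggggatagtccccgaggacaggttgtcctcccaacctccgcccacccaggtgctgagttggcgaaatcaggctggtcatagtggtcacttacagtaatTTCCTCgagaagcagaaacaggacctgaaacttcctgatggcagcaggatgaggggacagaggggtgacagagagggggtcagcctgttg
Trem2, chr9:20151780-20152029, minus strand: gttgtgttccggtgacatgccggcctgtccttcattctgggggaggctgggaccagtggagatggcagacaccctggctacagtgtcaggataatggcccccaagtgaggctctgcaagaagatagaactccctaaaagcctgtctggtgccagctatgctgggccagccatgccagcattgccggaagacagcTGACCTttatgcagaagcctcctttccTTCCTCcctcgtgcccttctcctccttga

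Both strands were searched for GAGGAA (the core of PU.1, the macrophage lineage factor), AGGTCA (the half-site of retinoid and PPAR receptors), TATAAA, direct repeats of AGGTCA spaced by 1, 2 or 5 bases, and the PU.1 and IRF composite (GGAA, any 2 bases, then GAAA). The C1qa run held none of them. The C1qb run held GAGGAA from 247 to 242 and, on the other strand, from 90 to 85 bases before the start. In Trem2 the half-site lay from 56 to 51 and the PU.1 core from 29 to 24 bases before the start, both on the other strand. These letters are common: GAGGAA was in 23.3% and AGGTCA in 14.1% of 33469 promoter entries of this length, against 2.48% for the composite, 12.9% for TATAAA and at most 0.0508% for a direct repeat. A match describes the sequence and nothing more. C1qb, C1qc and C1qa are consecutive coding genes on rat chromosome 5 in the RefSeq table. Lyz2 lies beside the near-identical lysozyme gene Lyc2 on chromosome 7, so its signal may hold both and is uncertain in that sense.

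C1qa had no value on 18 arrays, all of liver and most of them of day 3, and Trem2 had none on 1. No member value lay at the limit of the deposited scale. In liver the arrays of vehicle rats had SDs within days of 0.22 for C1qb and Csf1r, 0.25 for C1qa, 0.36 for Cd74 and 0.40 for Lyz2, against 0.15 for the median feature. Trem2 had an SD of 0.15 there, larger than that of 52.3% of features, while in quad its SD of 0.37 exceeded that of 92.3% of features. Over all tissues, 8 arrays stood apart, by a spread over 3 times the tissue's median or by marker genes of another tissue. They are 3 vehicle arrays of soleus (rats 1022, 1034 and 1061), 4 of quad (bezafibrate 1256, retinoic acid 1321, vehicle 1068 and fenofibrate 1157) and rosiglitazone rat 1376 of liver. Values without them are given where leaving them out ended a call.

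In liver, C1qa, C1qb, Csf1r, Lyz2 and Cd74 were lower with the PPARA agonists and Trem2 was not. Averaged over fenofibrate, bezafibrate and Wy-14643 and over the days, 5 of the 6 genes were called lower, in a comparison that called 23.9% of all features lower and 45.5% in either direction. The decreases ran from 0.32 to 0.42 log2 units, and each was seen in at least 36 of the treated rats. The comparisons of single compounds below share the vehicle rats with each other and with this mean.

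C1qb had the tightest change. Its deviations with Wy-14643 ran from -0.73 over a median of -0.43 to -0.02 in 15 rats, and with fenofibrate from -0.83 over -0.42 to -0.27 in 14 rats. With bezafibrate they ran from -0.57 over -0.16 to 0.09 in 15 rats, and in the 73 vehicle rats from -0.53 over -0.05 to 0.48. All fenofibrate and Wy-14643 rats lay below the vehicle mean, though the groups overlapped the lower vehicle rats. C1qb fell by 0.38 ± 0.04 (SE) over the 3 agonists, with an adjusted p of 3e-13, and 42 of 44 treated rats were below the vehicle mean. C1qa, the partner chain, was at -0.93, -0.52 and -0.07 (lowest, median, highest) with fenofibrate and at -0.61, -0.02 and 0.57 in the 64 vehicle rats that had a value. It fell by 0.42 ± 0.06, adjusted p 1.4e-08, and 36 of 40 treated rats were below the vehicle mean.

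Csf1r, the receptor, gave -0.97, -0.48 and 0.50 with fenofibrate, -0.97, -0.37 and -0.05 with Wy-14643, and -0.41, 0.01 and 0.58 in vehicle rats. It fell by 0.35 ± 0.05 over the 3 agonists (adjusted p 3e-09), and its 2 probes alone gave -0.35 and -0.34. For Cd74 the deviations were -1.25, -0.48 and -0.13 with fenofibrate, -1.21, -0.36 and 0.11 with Wy-14643, and -0.88, 0.00 and 0.76 in vehicle rats. Here all 14 fenofibrate rats and 14 of 15 Wy-14643 rats were below the vehicle mean, and Cd74 fell by 0.32 ± 0.07 over the 3 agonists (adjusted p 6.4e-05). Lyz2 was the most variable. With fenofibrate it spanned -1.18 to 1.93 around a median of -0.47, against -1.14 to 1.74 in vehicle rats, whereas with Wy-14643 all 15 rats lay between -0.75 and -0.08. Lyz2 fell by 0.33 ± 0.08, adjusted p 0.00031. Trem2 stayed within the vehicle range, at -0.28, -0.07 and 0.10 with Wy-14643 and -0.43, -0.01 and 0.75 in vehicle rats, with a mean change of -0.04 ± 0.04 (adjusted p 0.33, 95% interval -0.12 to 0.03). Its SD in vehicle livers was 0.15, as for the median feature, and whether its probe could show a change in liver was not tested.

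**Figure D1:**
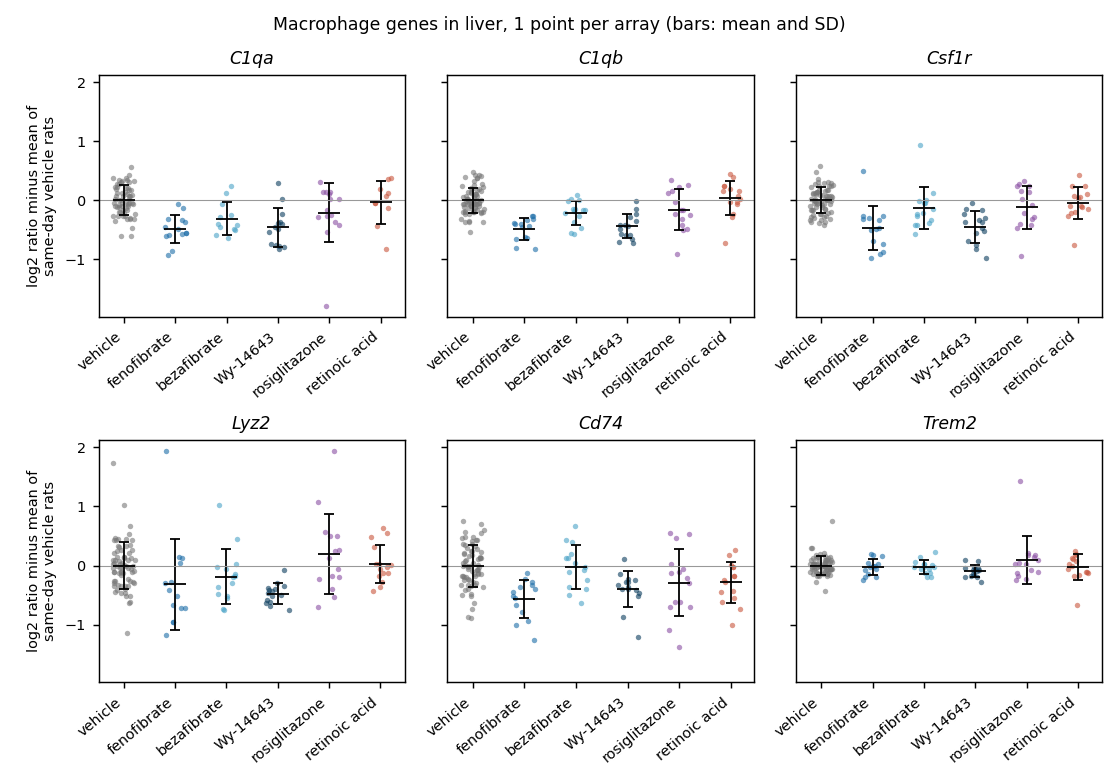
Deviation of each liver array (log2 ratio minus the mean of same-day vehicle rats, vertical axis) for the 6 genes by compound; points are arrays and bars are mean and SD. The fenofibrate and Wy-14643 points of C1qb lie between -0.83 and -0.02, while the Trem2 points of both compounds lie between -0.28 and 0.20.

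The agonists were given at different doses, so their values are set side by side and not compared. Fenofibrate at 400 mkd gave lower values of 5 of 6 genes, with 19.3% of all features called lower: C1qa at -0.48 ± 0.09, C1qb at -0.48 ± 0.07, Csf1r at -0.46 ± 0.08, Cd74 at -0.55 ± 0.11 and Lyz2 at -0.34 ± 0.13. Wy-14643 at 100 mkd gave lower values of those 5, with 21.2% of all features called lower: C1qa at -0.45 ± 0.09, C1qb at -0.44 ± 0.06, Csf1r at -0.45 ± 0.07, Lyz2 at -0.47 ± 0.12 and Cd74 at -0.40 ± 0.11. Bezafibrate at 250 mkd gave lower values of 2 genes, C1qa at -0.32 ± 0.10 (adjusted p 0.014) and C1qb at -0.21 ± 0.06 (adjusted p 0.0097), with 9.88% of all features called lower. C1qa had a value in 12 of these 15 rats, in 2 of 3 on day 2 and 1 of 3 on day 3. That 1 rat, at -0.40, stood for its day in the equal average over days. With bezafibrate Csf1r stood at -0.14 ± 0.07, Lyz2 at -0.19 ± 0.12 and Cd74 at -0.02 ± 0.11, and none of these was called. The bezafibrate calls and the Lyz2 call with fenofibrate were the weak ones. Without day 6 C1qa and C1qb with bezafibrate had adjusted p of 0.061 and 0.092, and C1qa had 0.072 without day 5. Lyz2 with fenofibrate was at -0.22 (adjusted p 0.19) without day 4. Its call also ended without day 2, 3 or 6 (adjusted p 0.12, 0.17 and 0.051) and with arrays scaled to one spread (0.14).

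**Figure D2:**
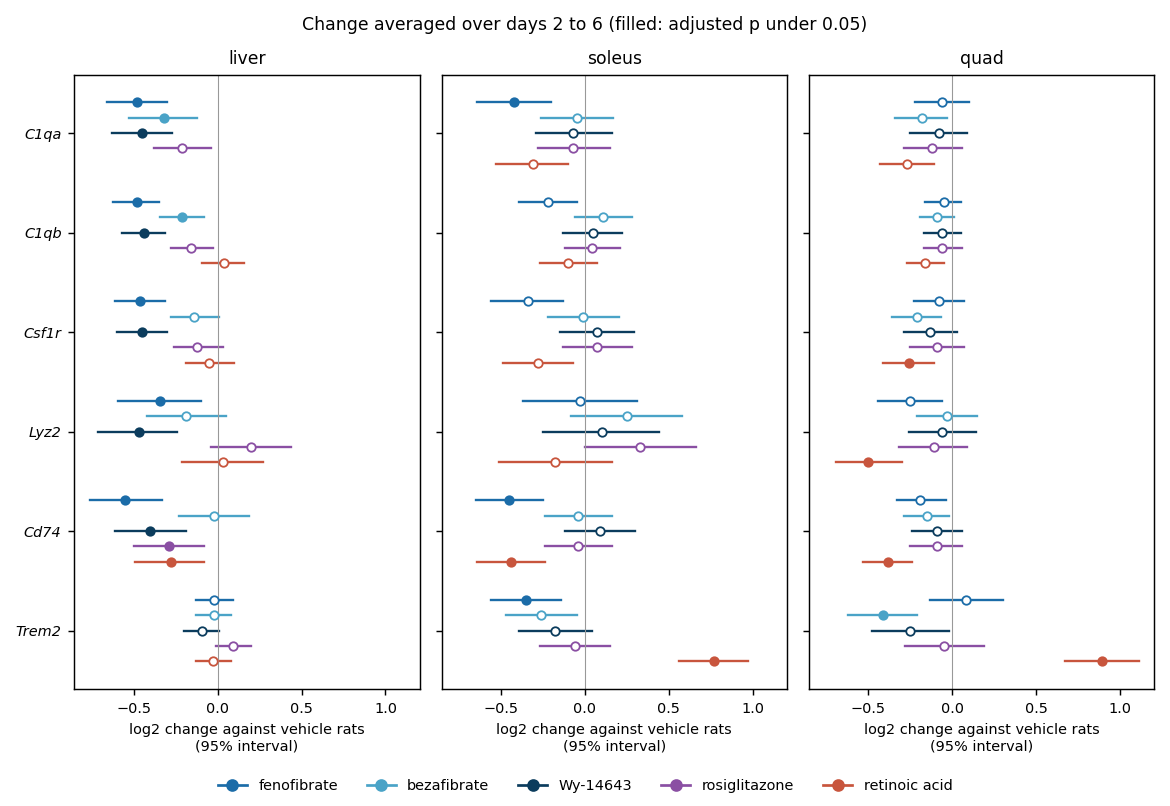
Change of each gene against vehicle rats, averaged over days 2 to 6 (horizontal axis, log2, with 95% interval) for each compound in liver, soleus and quad; filled points have an adjusted p under 0.05. In liver the filled points of C1qa and C1qb lie at -0.48 to -0.21, and the retinoic acid points of Trem2 stand apart at 0.77 in soleus and 0.89 in quad.

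By day, the largest decreases in liver were those of day 6, with 3 rats per compound, for C1qa, C1qb and Csf1r. Of 30 gene and day pairs, 10 were called lower with fenofibrate and 5 with Wy-14643, and none was called higher. Over all features and days, 4.27% and 4.31% were called lower, and on day 6 alone 6.71% and 7.1%. On that day Csf1r was at -0.97, -0.87 and -0.74 in the fenofibrate rats and at -0.97, -0.83 and -0.76 in the Wy-14643 rats, below all 16 vehicle rats, which spanned -0.37 to 0.48. C1qb was at -0.83, -0.80 and -0.66 with fenofibrate and -0.73, -0.65 and -0.59 with Wy-14643, again below all 16 vehicle rats (-0.31 to 0.41). C1qa was at -0.93, -0.85 and -0.60 with fenofibrate and -0.79, -0.77 and -0.75 with Wy-14643, against -0.61 to 0.31 in 15 vehicle rats, so that 1 fenofibrate rat fell inside the vehicle range. The share of all features that separated these rats from the vehicle rats in the same way is not given here. The day 6 changes were -0.86 ± 0.17 and -0.85 ± 0.17 for Csf1r, -0.76 ± 0.14 and -0.66 ± 0.14 for C1qb, and -0.79 ± 0.19 and -0.77 ± 0.19 for C1qa, with adjusted p from 2.5e-05 to 0.0018. Cd74 was at -1.25, -1.0 and -0.33 with fenofibrate and at -1.21, -0.47 and -0.28 with Wy-14643, against -0.87 to 0.57 in vehicle rats, with changes of -0.86 ± 0.23 and -0.65 ± 0.23. A test of any difference among the 5 days, which called 0.701% of all features with fenofibrate and 0.114% with Wy-14643, called none of the 6 genes, so the day 6 values of C1qa, C1qb, Csf1r and Cd74 are not shown to exceed those of other days. Lyz2 with fenofibrate had an adjusted p of 0.079 in that test and was called without the doubted liver array of rat 1376 (adjusted p 0.042, with 1.4% of all features called).

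Lyz2 differed from this pattern on day 5 of fenofibrate. The 3 rats were at 0.04, 0.13 and 1.93, so that 1 rat, number 1156, set the day's mean of 0.70, while the 8 rats of days 3, 4 and 6 were between -0.96 and -0.28. On day 2 the rats were at -1.18, -0.52 and 0.14, so 1 rat of that day also lay above the vehicle mean. With bezafibrate none of 30 gene and day pairs was called, where 3.58% of all features and days were.

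**Figure D3:**
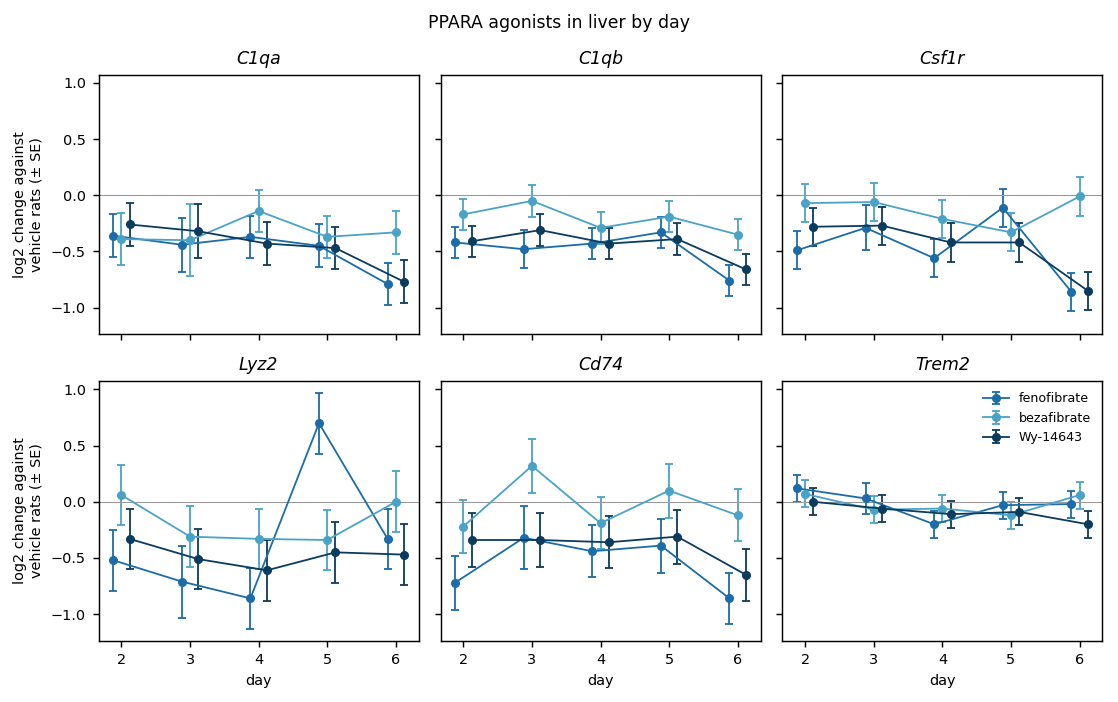
Change against vehicle rats on each day in liver (vertical axis, log2 ± SE; horizontal axis, day) for the 3 PPARA agonists and 6 genes. C1qa, C1qb and Csf1r reach -0.66 to -0.86 on day 6 with fenofibrate and Wy-14643, and the fenofibrate point of Lyz2 on day 5 stands at 0.70.

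Other genes of macrophages and of the same pathways moved the same way in this comparison, whose median feature was at 0.00. The counts below stand beside 23.9% of all features called lower and 21.7% called higher. The lists share genes, such as Cd163 and Folr2 (macrophage and Kupffer) and Ctss (macrophage and MHC class II), so their counts are not independent. Of 24 macrophage markers tested, 18 were lower and none higher (median -0.18): Aif1, Lgmn and Laptm5 fell by 0.36 ± 0.05, 0.34 ± 0.05 and 0.27 ± 0.04. Of 8 Kupffer cell markers 7 were lower (median -0.31), among them the iron exporter Slc40a1 at -0.41 ± 0.05 and the lectin Clec4f at -0.35 ± 0.07. The list of MHC class II and its loading had 9 of 13 lower (median -0.20), with the peptide exchange chain RT1-DMa at -0.23 ± 0.03 and the invariant-chain protease Ctss at -0.34 ± 0.06. Other complement genes had 13 of 17 lower (median -0.26); Cfp, the properdin of myeloid cells, was at -0.30 ± 0.04, and C4b, Mbl1 and C1r, made largely by hepatocytes, were at -0.55 ± 0.08, -0.49 ± 0.07 and -0.31 ± 0.05. Among partners of the Csf1 receptor and of Trem2, 12 of 16 were lower and 2 higher, with the kinase Syk at -0.26 ± 0.03 and the myeloid factor Irf8 at -0.30 ± 0.04.

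Markers of other cells were called in the same comparison. T, B and NK cell markers had 15 of 20 lower (median -0.10), with Cd79b of B cells at -0.34 ± 0.02 and Gzma at -0.42 ± 0.05. Endothelial markers had 6 of 9 lower (median -0.15), and erythroid genes 6 of 10 lower and 2 higher, with Hbb at -0.35 ± 0.08. Of 7 hepatocyte markers 2 were lower, Ttr at -0.62 ± 0.07 and Apoa1 at -0.55 ± 0.09, a count near the 23.9% of all features called lower. The median of the Kupffer list per array was -0.78 to -0.12 with Wy-14643 and -0.36 to 0.46 in vehicle rats, that of the T, B and NK list -0.31 to 0.02 against -0.17 to 0.25, and that of the hepatocyte list -0.40 to 0.12 against -0.20 to 0.31. The part of these lists in the decrease of the 5 genes was not tested. Genes of lipid-associated macrophages, a list that Trem2 is known to accompany, went both ways. Of 19, 6 were higher and 6 lower, beside 21.7% and 23.9% of all features.

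With rosiglitazone in liver, Cd74 alone of the 6 was called lower, at -0.29 ± 0.11 (adjusted p 0.035), with 12.4% of all features called lower. Its rats spanned -1.38 to 0.55 around -0.21, which overlapped the vehicle range of -0.88 to 0.76, and without day 6 the value was -0.15 with an adjusted p of 0.38. On day 5 Lyz2 was at 0.50, 0.57 and 1.94, above all 14 vehicle rats (-0.34 to 0.45), and rose by 1.00 ± 0.27 (adjusted p 0.0092), on a day that called 4.33% of all features higher. How many of all features separated these rats from the vehicle rats in the same way is not given here. Lyz2 with rosiglitazone in liver was the only one of 89 tested pairs of a gene with a tissue and compound whose change differed among days (adjusted p 0.03), in a test that called 31.1% of all features with that compound. On day 3 its rats were at -0.70, -0.53 and -0.06. Without the doubted arrays it kept its call (adjusted p 0.03), with 9.64% of all features called, and Lyz2 with fenofibrate in liver was the other pair called. On day 4 C1qa stood at -0.68 and Trem2 at 0.38, both called, in a comparison that called 41.5% of all features, but both rested on rat 1376. That rat had -1.79 for C1qa and 1.43 for Trem2, and without it the values were -0.13 (adjusted p 0.84) and -0.15 (adjusted p 0.55).

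With retinoic acid in liver, Cd74 was again the only gene called, at -0.28 ± 0.11 (adjusted p 0.03), with 15.0% of all features called lower. Its 15 rats spanned -1.01 to 0.26 around -0.24, inside or just below the vehicle range, and the call ended without day 2 (-0.21, adjusted p 0.21). C1qa had no day-averaged estimate, since its 3 arrays of day 3 had no value. Genes of antigen presentation went both ways here, where 14.2% of all features were called higher: 10 of 15 genes of MHC class I and its loading were higher and 1 lower, with the immunoproteasome subunit Psmb9 at 0.75 ± 0.11 and the peptide transporter chain Tap2 at 0.40 ± 0.06, while 4 of 13 of class II were lower and none higher, with RT1-Db1 at -0.30 ± 0.07 and the class II activator Ciita at -0.20 ± 0.06. Interferon-stimulated genes had 12 of 22 higher and 3 lower.

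In muscle, the clearest result was Trem2 with retinoic acid. In soleus its 20 rats lay between 0.07 and 1.25 around a median of 0.79, and all of them were above the vehicle mean, where the 35 vehicle rats spanned -0.55 to 0.75. In quad the 18 rats lay between -0.59 and 1.58 around 0.99, and 16 were above the vehicle mean, where 63 vehicle rats spanned -1.04 to 0.72. The groups thus overlapped in both muscles, in quad farthest through 2 rats of day 3 at -0.59 and -0.06. Trem2 rose by 0.77 ± 0.10 in soleus (adjusted p 2.7e-08) and by 0.89 ± 0.11 in quad (adjusted p 5.7e-10), in comparisons that called 1.74% and 0.716% of all features higher. Leaving out each array in turn gave 0.73 to 0.82 in soleus and 0.83 to 0.96 in quad.

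The mean of Trem2 was above 0 on each of the 5 days in both muscles. In soleus the 4 rats of day 4 were at 0.54, 0.83, 0.92 and 0.98, above all 10 vehicle rats of that day (-0.41 to 0.25). In quad the 4 rats of day 5 were at 1.26, 1.45, 1.55 and 1.58, above all 15 vehicle rats of that day (-1.04 to 0.47), a change of 1.46 ± 0.23 on a day that called 0.174% of all features higher. The share of all features with such a separation from the vehicle rats is not given for either group. Single days called Trem2 on days 3 and 4 in soleus, with 0.343% and 0.446% of all features higher, and on days 4 and 5 in quad, with 0.26% higher on day 4. The other days had positive means from 0.51 to 0.87 that were not called.

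In EDL, retinoic acid at 2.5 mkd gave ratios to the vehicle pool from -0.86 to 1.60 around 0.92 in 11 rats, 9 of them above 0. Trem2 rose by 0.75 ± 0.14 (adjusted p 5.5e-05) against the pool, but such a test lacks the spread of single vehicle rats and called 20.6% of all features higher. Set against the other compounds in EDL, the difference was 0.60 ± 0.17 with an adjusted p of 0.28, where 0.107% of all features were called higher. In liver Trem2 stood at -0.03 ± 0.05 with retinoic acid, with rats from -0.66 to 0.24. The effect in liver was lower than that in soleus, by a difference of -0.79 ± 0.11 (adjusted p 6.4e-09) and than that in quad, by -0.92 ± 0.13 (adjusted p 4.7e-10), where 6.85% and 7.68% of all features had the lower effect in liver. Soleus minus quad was -0.12 ± 0.15 (95% interval -0.43 to 0.18), which was not called. In vehicle livers the SD of Trem2 was 0.15, as for the median feature. Its r with the other 5 genes there ran from -0.04 to 0.14. Whether the Trem2 probe could show a change in liver was not tested, which limits the liver value and the differences from liver.

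**Figure D4:**
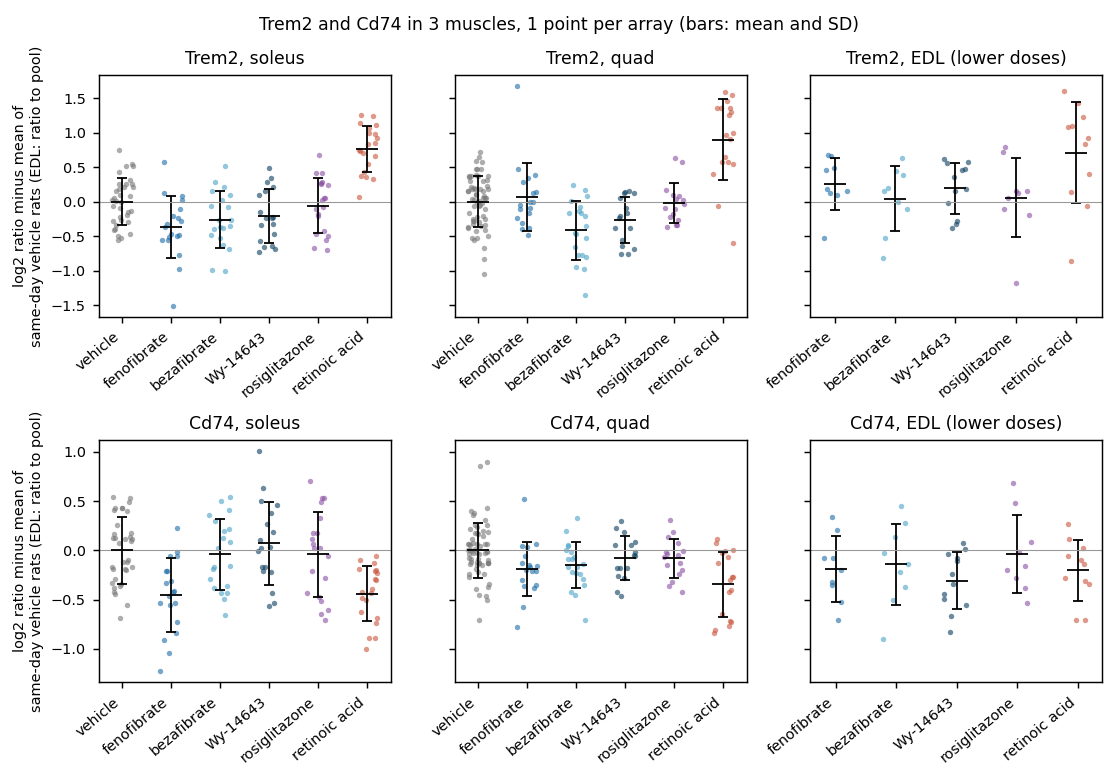
Deviation of each array (vertical axis, log2; in EDL the ratio to the vehicle pool, at lower doses) for Trem2 and Cd74 in 3 muscles by compound; points are arrays and bars are mean and SD. All 20 soleus rats with retinoic acid lie above 0 for Trem2 and below 0 for Cd74.

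Cd74 moved the other way in the same rats. In soleus the 20 rats with retinoic acid lay between -1.0 and -0.06 around -0.41, all below the vehicle mean, against -0.69 to 0.54 in vehicle rats. In quad the 18 rats lay between -0.84 and 0.12 around -0.29, and 15 were below the vehicle mean, against -0.71 to 0.90. Cd74 fell by 0.44 ± 0.10 in soleus (adjusted p 0.0031) and by 0.38 ± 0.07 in quad (adjusted p 0.00012), where 1.12% and 1.7% of all features were called lower; the soleus call ended without day 4 (-0.38, adjusted p 0.12). With Cd74, 4 of 13 other genes of MHC class II and its loading were lower and none higher in each of these muscles, including the class II chains RT1-Da (-0.34 ± 0.07 in soleus, -0.27 ± 0.05 in quad) and RT1-Db1 (-0.35 ± 0.08 and -0.28 ± 0.05). Without the doubted arrays the quad count was 6 of 13, and the share of all features called lower in that setting is not given here.

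The other 4 genes did not follow Trem2 upward with retinoic acid. In quad Lyz2 fell by 0.50 ± 0.10 (adjusted p 0.00019), with rats from -1.45 to 0.42 around -0.48 against -0.80 to 0.83 in vehicle rats. Single days called it on days 2 and 4, when all 6 rats were at or below -0.72. The means of days 3, 5 and 6 were -0.09, 0.00 and -0.35, and a difference among days was not called (adjusted p 0.27). Csf1r stood at -0.26 ± 0.08 (adjusted p 0.037) in quad, a call that ended without rat 1321 (adjusted p 0.054) or without day 2 (-0.15, adjusted p 0.44), and C1qa in quad was at -0.27 ± 0.08 (adjusted p 0.059), which was called in some alternatives, such as without the doubted arrays (-0.26, adjusted p 0.027). In soleus none of these 4 was called, and Csf1r had 17 of 20 rats below the vehicle mean, spanning -1.34 to 0.17.

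Macrophage markers as a list stayed near 0 with retinoic acid in muscle. Their median per array was -0.21 to 0.15 in soleus and -0.22 to 0.08 in quad, against -0.46 to 0.25 and -0.20 to 0.23 in vehicle rats. Of 24, 3 were higher in soleus and 3 higher and 3 lower in quad, where 1.74% (soleus) and 0.716% (quad) of all features were higher and 1.12% and 1.7% lower. The 3 that rose were Slc11a1, the phagosomal metal transporter (0.48 ± 0.05 in soleus, 0.28 ± 0.05 in quad), Lyve1, the hyaluronan receptor (0.71 ± 0.14 and 0.50 ± 0.10), and the Fc receptor Fcgr2b (0.55 ± 0.16 and 0.43 ± 0.10), while the mannose receptor Mrc1 fell by 0.43 ± 0.08 in quad. None of the genes of lipid-associated macrophages passed in soleus (16 tested) or quad (19 tested). Mast cell markers had 2 of 9 lower in both muscles (Cma1 at -0.64 ± 0.15 and -0.47 ± 0.09), and the adipocyte genes Fabp4 and Pparg were lower in both. Those genes come from a longer adipocyte list whose other results are not given here. The part of these cells in the change of Trem2 and Cd74 was not tested.

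The PPARA agonists left most of the 6 genes uncalled in muscle. The main exception was fenofibrate in soleus, with 3 genes called lower in a comparison with 1.03% of all features lower. Cd74 spanned -1.23 to 0.23 around -0.42, with 18 of 19 rats below the vehicle mean, and fell by 0.45 ± 0.10 (adjusted p 0.0039). C1qa spanned -1.16 to 0.40 around -0.53, with 15 of 19 below, and fell by 0.42 ± 0.11 (adjusted p 0.015). Trem2 spanned -1.51 to 0.57 around -0.36 and fell by 0.35 ± 0.11 (adjusted p 0.044). That call ended without day 5 (-0.21, adjusted p 0.67) and without the doubted vehicle arrays (-0.32, adjusted p 0.054). It also ended without day 3 (adjusted p 0.064), with arrays scaled to one spread (0.14), with quality weights (0.17) and against the pool (0.051). On day 5 the Trem2 values of the rats were -1.51, -0.98, -0.77 and -0.46, a change of -0.93 that was called (adjusted p 0.032) but not without the doubted arrays (-0.79, adjusted p 0.086). For each of the 3 genes the groups overlapped, and without day 4 none of the 3 was called. The C1qa call also ended with quality weights (-0.30, adjusted p 0.053) and without day 5 (-0.41, adjusted p 0.069). Csf1r stood at -0.34 without a call and was called at -0.38 (adjusted p 0.014) without the doubted arrays. None of 24 macrophage markers passed, and RT1-Da (-0.30 ± 0.07) was the only one of 13 genes of MHC class II and its loading that did.

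In quad, bezafibrate called Trem2 alone, at -0.41 ± 0.10 (adjusted p 0.016), with 1.1% of all features called lower. Its 20 rats spanned -1.35 to 0.24 around -0.40, and 16 were below the vehicle mean. The call ended without day 3, 4 or 6, with adjusted p of 0.072, 0.14 and 0.069. Fenofibrate, Wy-14643 and rosiglitazone called none of the 6 in quad, with 5.69%, 0.0163% and 6.86% of all features called, and bezafibrate, Wy-14643 and rosiglitazone called none in soleus, with 0.882%, 0.191% and 2.64%. One fenofibrate rat of quad, number 1157 among the doubted arrays, had the highest deviations of C1qa (1.44), Csf1r (1.21) and Trem2 (1.68) in its group. Averaged over the 3 PPARA agonists none of the 6 was called in soleus (1.97% of all features called) or quad (0.841%). In soleus Trem2 came nearest, at -0.26 ± 0.08 (adjusted p 0.068), where 41 of 57 rats were below the vehicle mean. In quad Trem2 stood at -0.19 ± 0.08 (adjusted p 0.21). Cd74 at -0.14 ± 0.05 (adjusted p 0.15) and Csf1r at -0.14 ± 0.05 (adjusted p 0.17) came nearer there. Without fenofibrate rat 1157 both were called, each at -0.17 (adjusted p 0.039 and 0.037).

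In EDL, where ratios were set against the pool, bezafibrate at 25 mkd called C1qa at -0.36 ± 0.14 (adjusted p 0.046) and C1qb at -0.37 ± 0.11 (adjusted p 0.011), with 17.7% of all features called lower. Wy-14643 at 10 mkd called Cd74 at -0.31 ± 0.09 (adjusted p 0.0049; 23.9% called lower), and retinoic acid at 2.5 mkd called C1qb at -0.27 ± 0.10 (adjusted p 0.034; 19.8% called lower). Fenofibrate at 50 mkd and both rosiglitazone doses called none, with 34.6%, 37.2% and 33.1% of all features called in either direction. None of these calls held against the other compounds, with adjusted p of 0.90 to 0.98, in comparisons that together called 0.164% of all features. On day 4, rosiglitazone at 100 against 10 mkd called none of the 6, where 0.0107% of all features were called; the differences ran from -0.19 ± 0.24 for Cd74 to 0.10 ± 0.31 for Lyz2.

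Set directly against muscle, the decrease in liver was larger for several genes. For the mean of the PPARA agonists, the effect in liver minus that in quad was -0.31 ± 0.08 for C1qa (adjusted p 0.0021), -0.31 ± 0.06 for C1qb (adjusted p 2.3e-06) and -0.21 ± 0.07 for Csf1r (adjusted p 0.022), while 14.7% of all features had the lower effect in liver. Against soleus it was -0.36 ± 0.08 for C1qb (adjusted p 0.0001), -0.25 ± 0.09 for Csf1r (adjusted p 0.035) and -0.44 ± 0.15 for Lyz2 (adjusted p 0.021), with 13.5% of all features lower. For Trem2 the sign was the other, 0.22 ± 0.08 against soleus (adjusted p 0.044), with 10.8% of all features higher. With Wy-14643 alone, C1qa, C1qb, Csf1r and Lyz2 had the lower effect in liver against both muscles, and Cd74 against soleus, with 11.2% (soleus) and 11.9% (quad) of all features lower. With retinoic acid the effect on Lyz2 in liver exceeded that in quad by 0.53 ± 0.16 (adjusted p 0.0086), with 8.21% of all features higher. None of 36 differences between soleus and quad was called, where 0.98% of all features were over the 6 comparisons.

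Arrays of one rat in different tissues share its number. In the fit paired by rat (the replicate block), some of the differences named above lost their call: Csf1r for the agonist mean against quad (-0.20, adjusted p 0.053) and against soleus (-0.23, adjusted p 0.13), and, with Wy-14643, C1qa against soleus (-0.32, adjusted p 0.21), against quad (-0.36, adjusted p 0.051) and Csf1r against quad (-0.28, adjusted p 0.098). Without the doubted arrays Csf1r, Lyz2 and Trem2 for the agonist mean against soleus lost theirs (-0.22, -0.34 and 0.19, adjusted p 0.064, 0.066 and 0.071), as did Lyz2 with Wy-14643 (-0.47, adjusted p 0.066). The differences of C1qb for the agonist mean and of Trem2 with retinoic acid kept theirs under both.

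Among untreated rats, 5 of the genes varied together, and Trem2 had lower correlations with them at the median. Over vehicle arrays with each day's mean subtracted, the 10 pairs among C1qa, C1qb, Csf1r, Lyz2 and Cd74 had a median Pearson r of 0.64 in soleus, 0.51 in quad and 0.55 in liver. Of these, 7, 10 and 10 passed a permutation test after adjustment over all 45 pairs. The highest in each tissue were C1qb with Csf1r in soleus (r 0.85, Spearman's rho 0.89) and C1qa with C1qb in quad (r 0.81, rho 0.80) and liver (r 0.78, rho 0.79), with permutation p of 1e-05 for each r and rho, the smallest that 100000 permutations can give. Without the 2 arrays farthest out these r were 0.82, 0.77 and 0.74. Within single days the median r over pairs and days was 0.78 in soleus (days 2 to 4 only), 0.58 in quad and 0.53 in liver. The ranges were -0.77 to 0.94, -0.19 to 0.91 and -0.19 to 0.92. On day 3 in soleus C1qa had r from -0.77 to -0.06 with the other 4 genes. Over all days, the lowest r in soleus, C1qa with Lyz2 at -0.18, became 0.64 without the doubted arrays. Without the 2 arrays farthest out it was 0.26. The 5 pairs with Trem2 had medians of 0.28, 0.30 and 0.01, of which 1, 3 and 0 passed. The 1 in soleus was C1qa with Trem2 (r 0.58), above C1qa with C1qb there (0.52). In liver their range was -0.04 to 0.14, where the SD of Trem2 was near that of the median feature. How many pairs of all features would pass is not given here, so the counts of passing pairs are not shown to be particular to these genes.

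**Figure D5:**
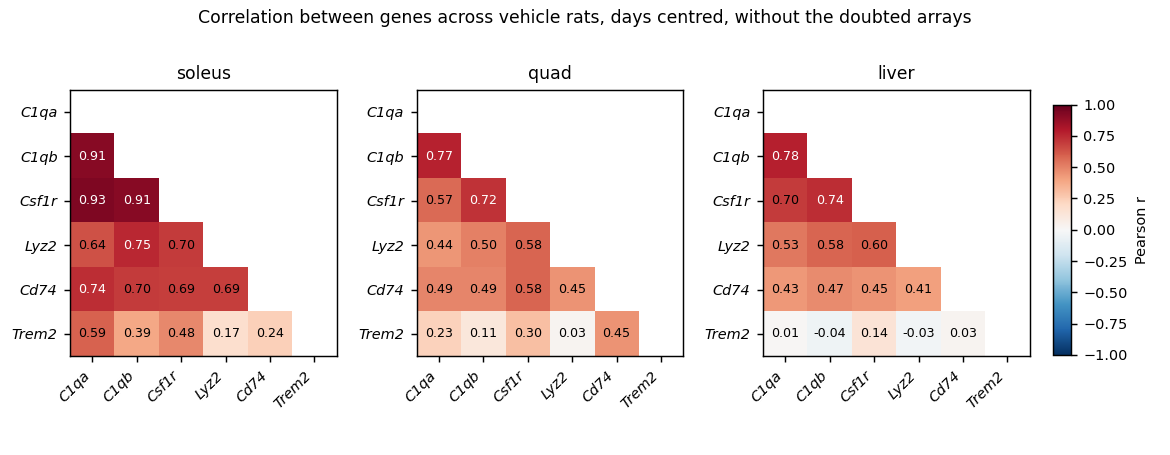
Pearson r between pairs of the 6 genes over vehicle arrays centred by day, without the doubted arrays, in soleus, quad and liver (colour scale from -1 to 1). The lowest row, Trem2, stays at or below 0.59 in soleus, 0.45 in quad and 0.14 in liver.

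The named genes most like the mean of C1qa and C1qb over vehicle arrays were ranked by Pearson r, as a description. In soleus (35 arrays) they were C1qc, the third C1q chain (r 0.88), Arl11 (0.81), Fxyd2 (0.80), the factor XIII chain F13a1 (0.79) and the ficolin Fcna (0.78). In quad (63 arrays) they were the folate receptor Folr2 (0.88), Fxyd2 (0.83), C1qc (0.80), the lysosomal protease Ctss (0.78) and the nucleoside transporter Slc29a3 (0.78). In liver (73 arrays) they were the lysosomal glycoprotein Cd68 (0.89), Cfp (0.88), the inflammasome adaptor Pycard (0.85), Laptm5 (0.83) and Aif1 (0.83). Of the other 4 genes, Trem2 ranked 181, Cd74 208, Csf1r 261 and Lyz2 2961 of 10034 in soleus, so Trem2 came first there (r 0.56). Without the doubted arrays of soleus its r was 0.51, against 0.74 for Cd74, 0.94 for Csf1r and 0.70 for Lyz2. In quad Csf1r ranked 11, Cd74 114, Lyz2 695 and Trem2 1275 of 10077, and in liver Csf1r ranked 34, Lyz2 141, Cd74 307 and Trem2 6329 of 10070. For 111 rats measured in both soleus and quad, all 6 genes correlated between the muscles after removing group means (r 0.22 to 0.37, adjusted permutation p at most 0.031 over 18 relations; by rank Csf1r had 0.079). Between liver and soleus (106 rats at most) 3 of the 6 did: Lyz2 (r 0.36, adjusted permutation p 0.013), Cd74 (0.30, 0.022) and Trem2 (0.30, 0.013), while the other 3 had r from 0.02 to 0.10. Between liver and quad (120 rats at most) none of the 6 passed, with r from -0.09 to 0.15. The share of all features that correlate between these tissues is not given here. The counts are therefore not shown to be particular to the 6 genes.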

How the data were processed

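RNA of rat liver, soleus, quad and EDL was extracted with TRIzol and RNeasy and copied to labelled cRNA, per the labels' protocols of 405 samples. The authors deposited a matrix of log10 ratios for 23653 probes on 484 arrays, limited to -2 and 2. Normalization, scale and direction are not given in the sources used here. Scale and direction were inferred, and multiplying by 3.32 gave log2. Another base would scale all changes together. No spot intensities were used, and precision is limited by how many arrays a group has.

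The platform table named the probes, and averaging the probes that share a gene left 18606 features. Per tissue, features with values on at least 80% of arrays entered a limma 3.58.1 fit (R 4.3.3) with 1 mean per compound and day. Compounds were set against vehicle within days, and days were averaged equally. The EDL ratios were tested against 0. Effects were compared between tissues as independent estimates and, as an alternative, within rats. P-values were two-sided and adjusted by Benjamini-Hochberg over all features. Arrays were paired by rat number, on the reading that one number marks one rat. Across such rats the 6 genes had r of 0.22 to 0.37 between soleus and quad. Between liver and soleus r was 0.02 to 0.36, and between liver and quad -0.09 to 0.15. Rosiglitazone rats of quad could be paired on days 2, 4, 5 and 6 only. Correlations used 100000 permutations (numpy 2.4.6, Python 3.11.15). Tables and figures used pandas 2.3.3 and matplotlib 3.10.9, and the fits were tested on simulated data.

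The genes, lists and tests were chosen with earlier results of these data known. The named genes are the 6 genes, up to 4 passing genes per list with the smallest adjusted p, and the 5 most like C1qa and C1qb per tissue. Alternatives were array centring, scaling, quality weights, complete values, the pool as reference, single probes, and leaving out days and arrays. Leaving out doubted arrays for days, lists and the paired fit was added after the data were seen. Promoters came from RefSeq (GRCr8).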

Additional observations from a re-analysis of the deposited data

Results flagged for a closer look

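Single arrays stood far from the other rats of their tissue, compound and day in 8 of 271 groups of 4 or more arrays. The rule took the gap to the nearest array relative to the whole range. Groups with fewer arrays, among them every compound group of liver, were not tested. Chance gives about 1 in 20 groups, so the 8 flagged arrays did not exceed what chance gives. In quad these were bezafibrate rat 1253 for Csf1r on day 2 (deviation 0.26), rat 1261 for C1qa on day 4 (-0.55) and rat 1269 for Cd74 on day 6 (-0.71). With fenofibrate in quad they were rat 1143 for Lyz2 (0.74) and rat 1144 for Cd74 (-0.58), both on day 2. The others were retinoic acid rat 1325 for C1qa in quad on day 6 (0.19), rosiglitazone rat 1376 for Csf1r in quad on day 4 (0.26) and fenofibrate rat 1147 for Trem2 in soleus on day 3 (0.12).

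The effect of Lyz2 with rosiglitazone in liver differed among days (adjusted p 0.03 by limma), also without the doubted arrays (adjusted p 0.03). The effect in liver minus that in soleus was called, again by limma after Benjamini-Hochberg adjustment, for Trem2 with fenofibrate (0.33), C1qb with bezafibrate (-0.32), and with Wy-14643 for C1qa (-0.38), C1qb (-0.49), Cd74 (-0.49), Csf1r (-0.52) and Lyz2 (-0.57). With retinoic acid it was called for Trem2 (-0.79), and for the mean of the PPARA agonists for C1qb (-0.36), Csf1r (-0.25), Lyz2 (-0.44) and Trem2 (0.22). The effect in liver minus that in quad was called with fenofibrate for C1qa (-0.42), C1qb (-0.43), Cd74 (-0.36) and Csf1r (-0.38), and with bezafibrate for Trem2 (0.39). With Wy-14643 it was called for C1qa (-0.37), C1qb (-0.38), Csf1r (-0.32) and Lyz2 (-0.42), with retinoic acid for Lyz2 (0.53) and Trem2 (-0.92), and for the mean of the PPARA agonists for C1qa (-0.31), C1qb (-0.31) and Csf1r (-0.21). In the fit paired by rat (the replicate block) the calls against soleus of Trem2 with fenofibrate (0.34, adjusted p 0.056 by limma) and C1qb with bezafibrate (-0.27, adjusted p 0.18) ended. Without the doubted arrays that of Cd74 with fenofibrate against quad ended (-0.30, adjusted p 0.072).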

How the results depend on the processing

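No day-averaged effect or difference between tissues that was called reversed its direction under any alternative run, but on single days Trem2 with rosiglitazone on day 4 in liver went from 0.38 (called) to -0.15 without the doubted arrays. Among the day-averaged effects recomputed, 36 lost and 40 gained their call and 1663 did neither; among the differences between tissues 17 lost it, 6 gained it and 295 did neither, all of these changes being under the replicate block (pairing by rat) or without the doubted arrays; in EDL 5 calls ended against the other compounds. Counts of the 6 genes called that moved by more than 1.5 times, or to or from 0, were the following; 221 other counts moved less or not at all. Fenofibrate in soleus (3 called) gave 0 without day 4 and 1 without day 5, and retinoic acid in soleus (2 called) gave 1 without day 4. The agonist mean in soleus (0 called) gave 1 against the pool, without day 2 or without vehicle rat 1022. In quad, fenofibrate (0 called) gave 2 against the pool and 1 without day 5, bezafibrate (1 called) gave 4 against the pool and 0 without day 3, 4 or 6, and the agonist mean (0 called) gave 4 against the pool and 2 without fenofibrate rat 1157. In liver, bezafibrate (2 called) gave 1 with complete values only or without day 5 and 0 without day 6. Rosiglitazone (1 called) gave 0 with arrays scaled to one spread or without day 6, 3 against the pool and 2 without day 5. Retinoic acid in liver (1 called) gave 0 with arrays scaled to one spread or without day 2, 4 or 6. Where days were left out, fewer arrays were tested; otherwise the cause was not tested. Without the doubted arrays, Kupffer cell markers called lower with rosiglitazone in liver went from 3 to 0 of 8, other complement genes from 7 to 1 of 17, and with bezafibrate other complement genes from 5 to 9 of 17. With all arrays, 12.4% (rosiglitazone) and 9.88% (bezafibrate) of all features were called lower. The shares without the doubted arrays are not given here, so these lists are not shown to have moved more than other features. The number of arrays limits what small effects could be called, and with 2 to 4 rats per compound and day the single-day values are the least certain.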
